A study of Mus musculus with 6 samples.

Results

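Glycosyltransferases of the Golgi apparatus that build and cap the sugar chains of proteins and lipids were examined in epithelial cells of mouse gonadal primordia lacking or carrying the homeobox gene Emx2. The set was chosen by gene symbol: every probe set of the array that is annotated to 1 gene whose symbol is Fut, St3gal, St6gal, St6galnac, St8sia, B3galt, B3gnt, B4galt, B4galnt, Galnt, Gcnt or Mgat followed by a number. It held 172 of the 45101 probe sets and 81 of the 18194 genes named on the array, 53 of them read by more than 1 probe set. By these symbols the set is wider than fucosyl-, sialyl- and galactosyltransferases, since B3gnt, Gcnt and Mgat enzymes transfer N-acetylglucosamine, and Galnt and B4galnt enzymes transfer N-acetylgalactosamine. No value of a member decided its membership, but the set was taken up with KO against wild-type results of these arrays known, the high Fut9 signal of the KO pools among them. The values below are therefore a description of this contrast, and Fut9 is given without a p-value.

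The compared groups were pools of Emx2 KO (-/-) and of wild-type (+/+) fetuses at E10.5, with 3 pools in each group and material of 3 fetuses in each pool. Unfixed fetuses were frozen and sectioned, GATA4 staining of some sections marked the primordium, and its epithelium was collected by laser microdissection. RNA amounting to 15 ng per pool was amplified over 2 cycles and hybridised to 1 array. Strain, the allele behind the KO label and the sex of the fetuses are not given in the sources used here. Only the spread between pools enters the p-values.

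Sugar chains are built stepwise. Galnt enzymes start mucin-type O-glycans by placing N-acetylgalactosamine on serine or threonine, and Mgat enzymes open the branches of N-glycans. B3gnt, Gcnt, B3galt and B4galt enzymes extend and branch the chains, and fucosyl- and sialyltransferases add the residues that end them, among them the Lewis x epitope (SSEA-1), which marks mouse primordial germ cells, and polysialic acid, a long chain carried by the cell adhesion molecule NCAM.

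The ratio of 3' to 5' signal of the Gapdh control lay between 3.64 and 4.16 in KO arrays and between 3.48 and 4.25 in wild-type arrays, and that of the Actb control between 14.6 and 20.2 in KO arrays and between 14.9 and 19.4 in wild-type arrays. The only Emx2 probe set read 1634 ± 138 in KO pools and 1716 ± 409 in wild-type pools (SD, n = 3 each, scaled intensity), so it does not check the labels, whereas Emx2os, from the same locus, read 38.8 ± 8.88 in KO pools and 190.05 ± 34.7 in wild-type pools. Xist, the RNA of the inactive X chromosome, read 9512 ± 326 in KO pools and 34.6 ± 30.8 in wild-type pools, and 3 Y-linked genes were lower in KO pools, so genotype and the sex of the fetuses cannot be told apart. None of the 81 member genes lies on the X or Y chromosome in RefSeq (0 of 81).

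Intensities were scaled to a common array level, and 92 of the 172 member probe sets, from 60 genes, were bright enough to be tested. Of these, 2 had a group wholly under the dim limit of 26.4 and were tested through the other group alone, Fut9 (wild-type) and a St3gal6 probe set (KO). In the other 90, 13 passed an adjusted p of 0.05 in limma's test over all 27022 tested probe sets (14.4%), 9 higher and 4 lower in KO pools. Among all probe sets with both groups reaching the limit 4.56% passed, 2.68% higher and 1.88% lower. With Fut9, whose pass is not counted as support, 14 of 92 passed (15.2%, against 4.68% of all tested, with 2.75% higher and 1.93% lower). By gene, 6 rose (B4galt6, B3gnt9, Galnt12, Gcnt1, St8sia2 and St6galnac5), 3 fell (St6gal1, St3gal6 and St3gal1), 50 did not pass and 21 were too dim to test, which leaves Fut9. The median log2 fold change was 0.14 over the tested members and 0.01 over all tested probe sets. KO and wild-type values were separate in 31 of the 92 (33.7%, against 22% of all tested). Every KO pool lay above every wild-type pool in 21 (22.8%, against 12% of all tested). Every KO pool lay below in 10 (10.9%, against 10%), close to the share over all tested probe sets. The median and these counts include the 2 probe sets tested through 1 group alone, Fut9 (KO above) and that of St3gal6 (KO below). Without rescaling of the arrays 10 members, Fut9 among them, were higher and 1 was lower, and of all probe sets 579 were higher and 267 lower, so the share of lower calls depends on the scaling. The 14 calls with Fut9 became 8 without KO replicate 1, and 9 without KO replicate 2, KO replicate 3 or wild-type replicate 1. In a microdissected pool, fewer cells of a type and less RNA per cell cannot be told apart.

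**Figure D1:**
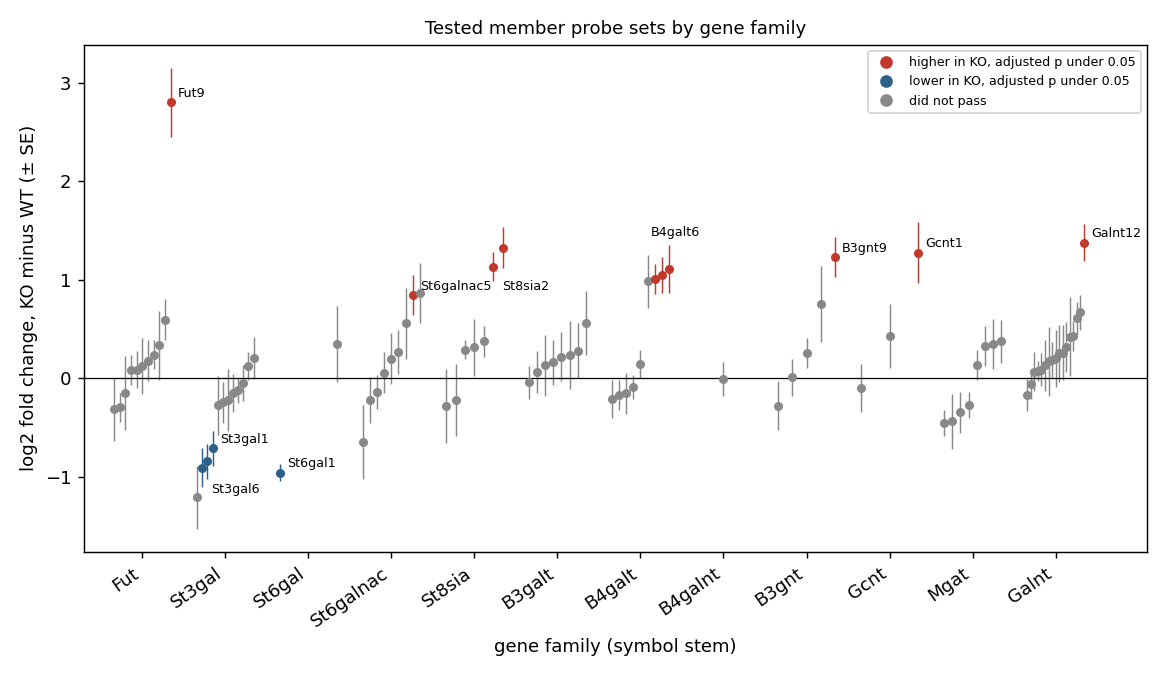
Log2 fold change (KO minus wild-type, vertical axis) of the 92 tested member probe sets, grouped by gene family along the horizontal axis, with SE bars (n = 3 pools per group). Red points were higher and blue points lower in KO pools at an adjusted p under 0.05, and grey points did not pass. Fut9 lies highest at 2.81, and the 4 lower calls are all sialyltransferase probe sets.

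The sialyltransferases, which end chains with sialic acid, went both ways. St6gal1, the enzyme that places sialic acid on the galactose ends of N-glycans, read 2558, 2398 and 2546 in the KO pools, against 4783, 5309 and 4525 in the wild-type pools. The groups lay far apart, with every KO pool below every wild-type pool. The means were 2500.5 ± 89.4 in KO pools and 4872 ± 399.7 in wild-type pools (SD, n = 3 each), a log2 fold change of −0.96 (SE 0.09, adjusted p = 6.07e-05). The call held in all 6 fits with 1 pool left out, between −1.01 and −0.90. A second St6gal1 probe set was too dim to test, and the related St6gal2 gave 0.35 (SE 0.39, adjusted p = 0.719), with a 95% interval from −0.49 to 1.19.

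St3gal6, which adds sialic acid to the same kind of galactose end in another linkage, fell at 2 of its 4 tested probe sets. Probe set 1449079_s_at read 105, 124 and 134 in KO pools, against 239, 195 and 217 in wild-type pools (−0.85, SE 0.18, adjusted p = 0.0152). Probe set 1449078_at read 82.2, 75.2 and 78.2 in KO pools, against 163, 123 and 160 in wild-type pools (−0.91, SE 0.20, adjusted p = 0.0190). At both, all KO values were below all wild-type values. Probe set 1454246_at, with all KO values under the dim limit, read 20.6 ± 5.04 in KO pools and 47.0 ± 6.54 in wild-type pools (−1.21, SE 0.32, adjusted p = 0.0501), and 1447841_x_at did not differ beyond its spread (−0.15, SE 0.19, adjusted p = 0.759). At 1454246_at too every KO pool lay below every wild-type pool, whereas the groups overlapped at 1447841_x_at. Whether the 4 probe sets of this gene differ in their change was not tested. Probe sets 1449079_s_at and 1447841_x_at are of types open to cross-hybridisation. With 1 pool left out, 1449079_s_at did not pass without KO replicate 1 or wild-type replicate 1 (−0.75 and −0.77), and 1449078_at passed only without wild-type replicates 2 and 3, its adjusted p elsewhere lying between 0.0503 and 0.0892.

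St3gal1, which caps the core of mucin-type O-glycans, read 142, 125 and 107 in KO pools at probe set 1441216_at, against 202, 195 and 213 in wild-type pools. The difference of −0.71 (SE 0.18, adjusted p = 0.0360) was the smallest among the called members. It passed in 1 of the 6 fits with 1 pool left out, that without KO replicate 1, and its adjusted p was between 0.0689 and 0.149 in the others. The second tested probe set, 1418946_at, gave −0.22 (SE 0.31, adjusted p = 0.791), with overlapping groups. The other 4 St3gal genes did not pass. Among them St3gal5, the enzyme that makes the ganglioside GM3, gave 0.13 and 0.21 at its 2 probe sets.

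The St3gal6 and St6gal1 genes are shown with the sequence before an annotated start, because they fell and because these windows hold the letters TAATTA, which contain the core that homeodomain proteins bind. RefSeq sequences of build GRCm38.p6 were at hand for 59 of the 81 genes and for 4 of the 10 with a call, and only the 250 bases before the start were searched, on either strand since TAATTA is its own reverse complement. Both windows are printed 5′ to 3′ on the strand of the gene with TAATTA in capitals, for St6gal1 at chr16:23290220-23290469 on the plus strand and for St3gal6 at chr16:58524254-58524503 on the minus strand.
St6gal1: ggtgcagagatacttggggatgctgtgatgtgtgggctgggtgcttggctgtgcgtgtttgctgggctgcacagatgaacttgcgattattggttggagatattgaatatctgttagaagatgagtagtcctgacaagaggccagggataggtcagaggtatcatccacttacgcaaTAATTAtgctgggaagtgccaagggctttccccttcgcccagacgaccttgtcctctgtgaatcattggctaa
St3gal6: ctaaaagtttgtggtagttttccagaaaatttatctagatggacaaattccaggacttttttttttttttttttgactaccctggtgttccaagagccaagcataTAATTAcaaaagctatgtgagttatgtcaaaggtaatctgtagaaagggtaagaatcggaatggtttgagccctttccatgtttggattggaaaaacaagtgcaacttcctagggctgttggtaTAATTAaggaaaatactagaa
The match lay at base 178 of the St6gal1 window, and at bases 106 and 230 of the St3gal6 window. The other 2 St6gal1 windows, the other St3gal6 window, the 3 Gcnt1 windows and the single St8sia2 window held none. TAATTA stood in 4.84% of all 32851 windows and in 4 of 84 member windows (4.76%), so the members' share was that of promoters at large. A match in a window is not a binding site.

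The sialyltransferases that rose act on other acceptors. St8sia2, which builds polysialic acid on NCAM, rose at both tested probe sets. Probe set 1420377_at read 581, 454 and 524 in KO pools, against 235, 242 and 230 in wild-type pools (1.13, SE 0.14, adjusted p = 0.000528). Probe set 1449843_at read 399, 505 and 549 in KO pools, against 161, 162 and 269 in wild-type pools (1.33, SE 0.21, adjusted p = 0.00238). No pool of one group reached the other group at either, and both calls held in all 6 fits with 1 pool left out. St8sia4, the other polysialyltransferase, read 102, 304 and 186 in KO pools, against 338, 191 and 140 in wild-type pools, with a 95% interval of its log2 fold change from −1.01 to 0.57 (adjusted p = 0.824). Whether St8sia2 and St8sia4 differ in their change was not tested. Ncam1 itself, the main carrier, gave 0.29, 0.28 and 0.45 at its 3 tested probe sets, none of which passed (adjusted p = 0.0948, 0.325 and 0.252).

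St6galnac5, a brain-type enzyme of ganglioside sialylation, read 140, 114 and 120 in KO pools at probe set 1440973_at, against 62.6, 69.7 and 76.0 in wild-type pools (0.85, SE 0.20, adjusted p = 0.0314). Its other tested probe set gave a like value with overlapping groups and did not pass (0.86, SE 0.30, adjusted p = 0.148). With 1 pool left out, the call stood only without wild-type replicate 3, and the adjusted p was between 0.0669 and 0.145 elsewhere. St8sia1, which makes the ganglioside GD3, had no overlap between groups at either tested probe set, at 2018, 1755 and 2022 in KO pools against 1611, 1502 and 1614 in wild-type pools for the brighter one, but did not pass (0.29, SE 0.10, adjusted p = 0.129). Of the 19 tested sialyltransferase genes, 2 thus rose, 3 fell and 14 did not pass.

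**Figure D2:**
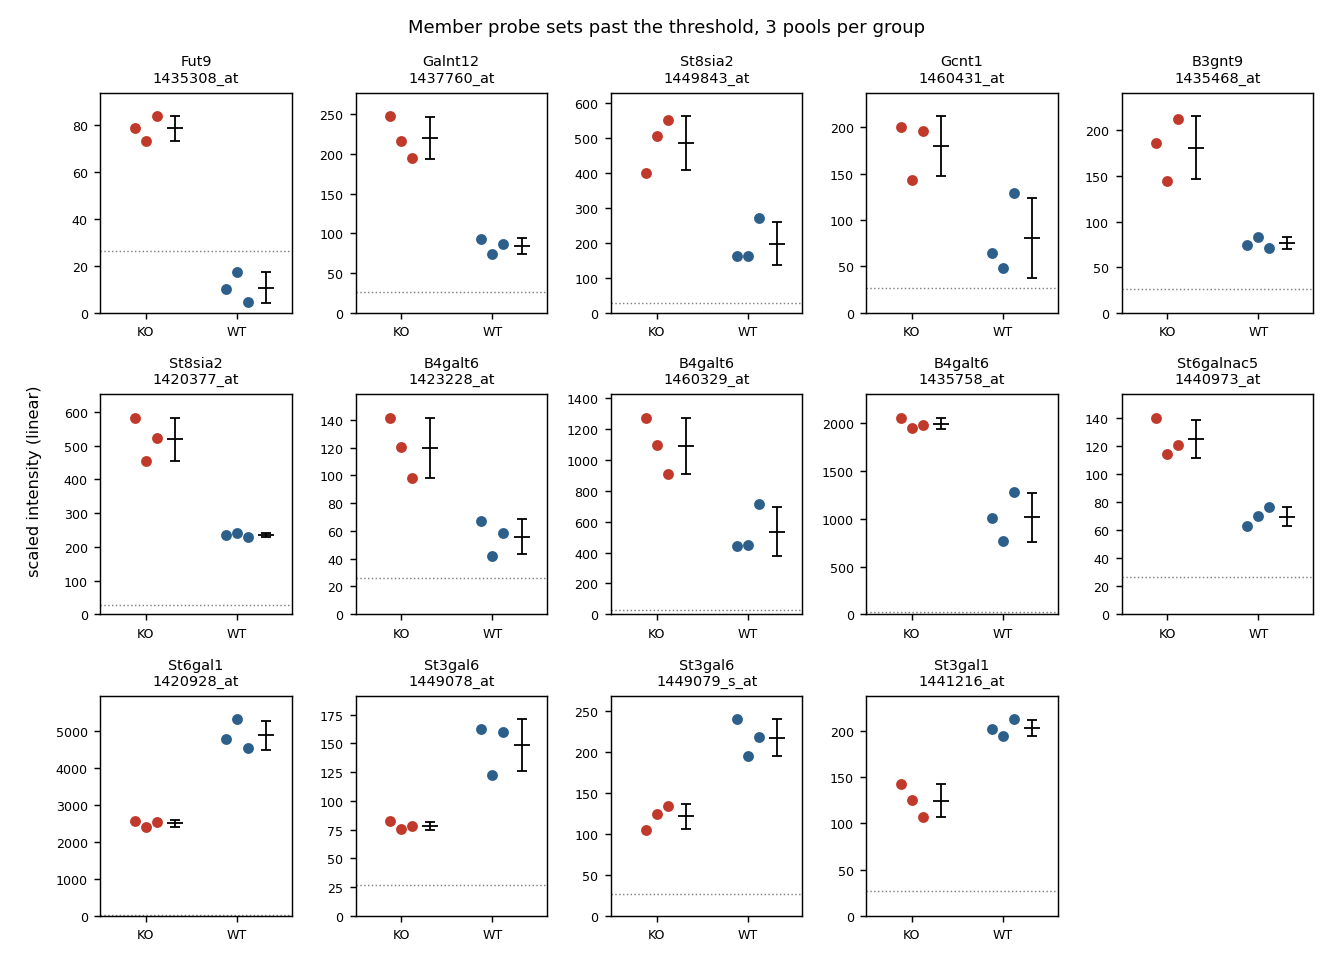
Scaled intensity (vertical axis, linear, starting at 0) of the 14 member probe sets past the threshold in each of 3 KO pools (red, left) and 3 wild-type pools (blue, right), with mean and SD beside the points. The dotted line is the dim limit of 26.4. In all 14 panels the points of the groups do not overlap, and only Fut9 has its wild-type points under the dim limit.

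Among the fucosyltransferases Fut9 stood apart. This enzyme makes the Lewis x epitope, and at probe set 1435308_at it read 78.7, 73.2 and 83.6 in KO pools, against 10.1, 17.4 and 4.56 in wild-type pools. The KO signal was modest but even, and the wild-type signal lay under the dim limit of 26.4 in every pool, 1 of them below the floor of 7.99. The log2 fold change of 2.81 (SE 0.35) was the largest of the set, and its size rests on the floor: with the floor at the 40th percentile of intensities it was 1.48. It was 2.56, 2.72 and 3.12 without wild-type replicates 3, 1 and 2, and with a KO pool left out the probe set fell under the limit for testing. Of the other 2 Fut9 probe sets, 1457409_at read 8.17, 19.6 and 25.9 in KO pools, against 0.732, 3.92 and 4.06 in wild-type pools, and 1450771_at was below the floor in all 6.

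The other fucosyltransferases did not pass. Fut4, the further enzyme of Lewis x synthesis, read 55.2, 67.0 and 47.0 in KO pools, against 44.9, 41.3 and 72.6 in wild-type pools (0.12, SE 0.29, adjusted p = 0.879). Fut10 was higher in every KO pool at 1 probe set (0.60, SE 0.21, adjusted p = 0.143) and overlapped at another (0.18). Fut8, which adds the core fucose of N-glycans, was lower in every KO pool at its brightest probe set, at 225, 209 and 226 against 259, 287 and 264 in wild-type pools (−0.29, SE 0.15, adjusted p = 0.332). Fut11 gave 0.24, 0.09 and 0.09 at its 3 probe sets, Fut2 gave −0.15, and Fut1 and Fut7 were too dim to test.

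B4galt6 was the 1 galactosyltransferase gene that rose. With B4galt5 it makes lactosylceramide, the base of gangliosides. Its brightest probe set, 1435758_at, read 2059, 1956 and 1978 in KO pools, against 1004, 764 and 1279 in wild-type pools (1.01, SE 0.15, adjusted p = 0.00195). Probe set 1460329_at gave 1.05 (SE 0.19, adjusted p = 0.00521) and 1423228_at gave 1.11 (SE 0.25, adjusted p = 0.0203). The fourth, 1450913_at, gave 0.98 with more spread (SE 0.27, adjusted p = 0.0584), so all 4 lay between 0.98 and 1.11, and at each the groups did not overlap. The calls at 1435758_at and 1460329_at held in all 6 fits with 1 pool left out, and that at 1423228_at was lost without KO replicate 1, KO replicate 2 or wild-type replicate 2 (adjusted p = 0.105, 0.0725 and 0.0638). B4galt5 read 352, 425 and 297 in KO pools, against 405, 408 and 386 in wild-type pools (−0.17, 95% interval from −0.50 to 0.16, adjusted p = 0.632). The other 4 tested B4galt genes lay between −0.21 and 0.14.

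None of the 4 tested B3galt genes passed in limma's test. Of their 8 tested probe sets 0 had an unadjusted p under 0.05, against 4676 of all 27022 tested probe sets. The nearest by p were B3galt1, at 35.1 ± 2.00 in KO pools and 24.3 ± 6.21 in wild-type pools (0.56, SE 0.32, adjusted p = 0.414), and B3galt5 (0.28, SE 0.28, adjusted p = 0.685). B4galnt4, which makes a chain end of 2 N-acetylated sugars, was the only tested member of its family and read 440.4 ± 75.8 in KO pools and 443 ± 84.0 in wild-type pools (−0.01, SE 0.17, adjusted p = 0.990), its sign turning with the scaling.

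Among the enzymes that extend and branch, B3gnt9 and Gcnt1 rose. B3gnt9, of the family that adds N-acetylglucosamine to galactose, read 186, 144 and 213 in KO pools, against 74.5, 83.5 and 70.6 in wild-type pools (1.23, SE 0.20, adjusted p = 0.00358), and passed in all 6 fits with 1 pool left out. Gcnt1, which opens the branch of mucin-type O-glycans, read 200.3, 143 and 196 in KO pools, against 63.9, 47.7 and 130 in wild-type pools. The groups did not overlap, but wild-type replicate 3 lay close to the lowest KO pool (1.28, SE 0.31, adjusted p = 0.0341). The Gcnt1 call was lost without KO replicates 1 or 3 or wild-type replicates 1 or 2 (log2 fold change down to 0.97, adjusted p between 0.0979 and 0.138). B3gnt5, which extends glycolipids, gave 1910 ± 349 in KO pools and 1597 ± 284 in wild-type pools (0.26, SE 0.15, adjusted p = 0.434).

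No Mgat gene passed in limma's test, of 6 tested. Of their 8 tested probe sets 1 had an unadjusted p under 0.05, against 4676 of all 27022 tested probe sets. Mgat5, which adds a branch that can be extended by long chains, came nearest, at 421, 398 and 437 in KO pools against 643, 518 and 566 in wild-type pools (−0.45, SE 0.13, adjusted p = 0.0730). All KO values were below all wild-type values, whereas its second probe set overlapped (−0.34, SE 0.21, adjusted p = 0.447). Mgat1, which starts complex N-glycans, was lower in every KO pool as well, at 394 ± 6.06 in KO pools and 479 ± 49.6 in wild-type pools (−0.28, SE 0.13, adjusted p = 0.307).

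Galnt12 was the 1 of 11 tested Galnt genes that rose. It read 248, 216 and 195 in KO pools, against 93.0, 73.5 and 87.0 in wild-type pools, and the groups were well separated (1.38, SE 0.19, adjusted p = 0.000914). The call held in all 6 fits with 1 pool left out, between 1.28 and 1.46. Galnt4 was higher in every KO pool at its 1 tested probe set and lay just outside the threshold (0.61, SE 0.17, adjusted p = 0.0627). A dim Galnt4 probe set, 1423638_at, went the other way near the floor. It read 2.69, 2.44 and 5.14 in KO pools, against 5.24, 13.0 and 6.97 in wild-type pools. Galnt7 was higher in every KO pool at its 2 tested probe sets and did not pass (0.67 and 0.43, adjusted p = 0.0564 and 0.142). Galnt1 and Galnt2, common initiating enzymes, gave 0.07 and 0.09 at their brightest probe sets, with SE 0.10 and 0.17.

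Of the 80 member probe sets left out as dim, 62 read below 26.4 on all 6 arrays and 15 were at the floor on all. The 21 genes with no tested probe set were B3galt2, B3gnt3, B3gnt4, B3gnt6, B4galnt1, B4galnt2, B4galt4, Fut1, Fut7, Galnt5, Galnt9, Galnt13, Galnt14, Galnt15, Gcnt3, Gcnt7, Mgat4c, Mgat4d, Mgat4e, Mgat5b and St8sia3. In 15 of the 80 the groups did not overlap, with KO above in 9 and below in 6 (18.8%, against 11.9% of all 18015 dim probe sets, 6.38% with KO above and 5.47% with KO below), and none of them was tested. Galnt5 read 27.5, 20.03 and 30.7 in KO pools, against 6.71, 1.63 and 2.49 in wild-type pools. A Galnt3 probe set, 1427749_at, read 37.3, 34.1 and 26.6 in KO pools, against 3.29, 19.3 and 5.56 in wild-type pools, while its tested probe set gave 0.26 (SE 0.28). The second Gcnt1 probe set read 32.6, 25.01 and 37.8 in KO pools, against 1.59, 2.50 and 17.0 in wild-type pools. Among those with KO below, a B3gnt2 probe set read 16.9, 14.8 and 5.99 in KO pools, against 59.3, 17.3 and 34.8 in wild-type pools, while the tested B3gnt2 probe set gave 0.01 (SE 0.18). These signals are near the limit of what the array reads, and they are given as values only.

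**Figure D3:**
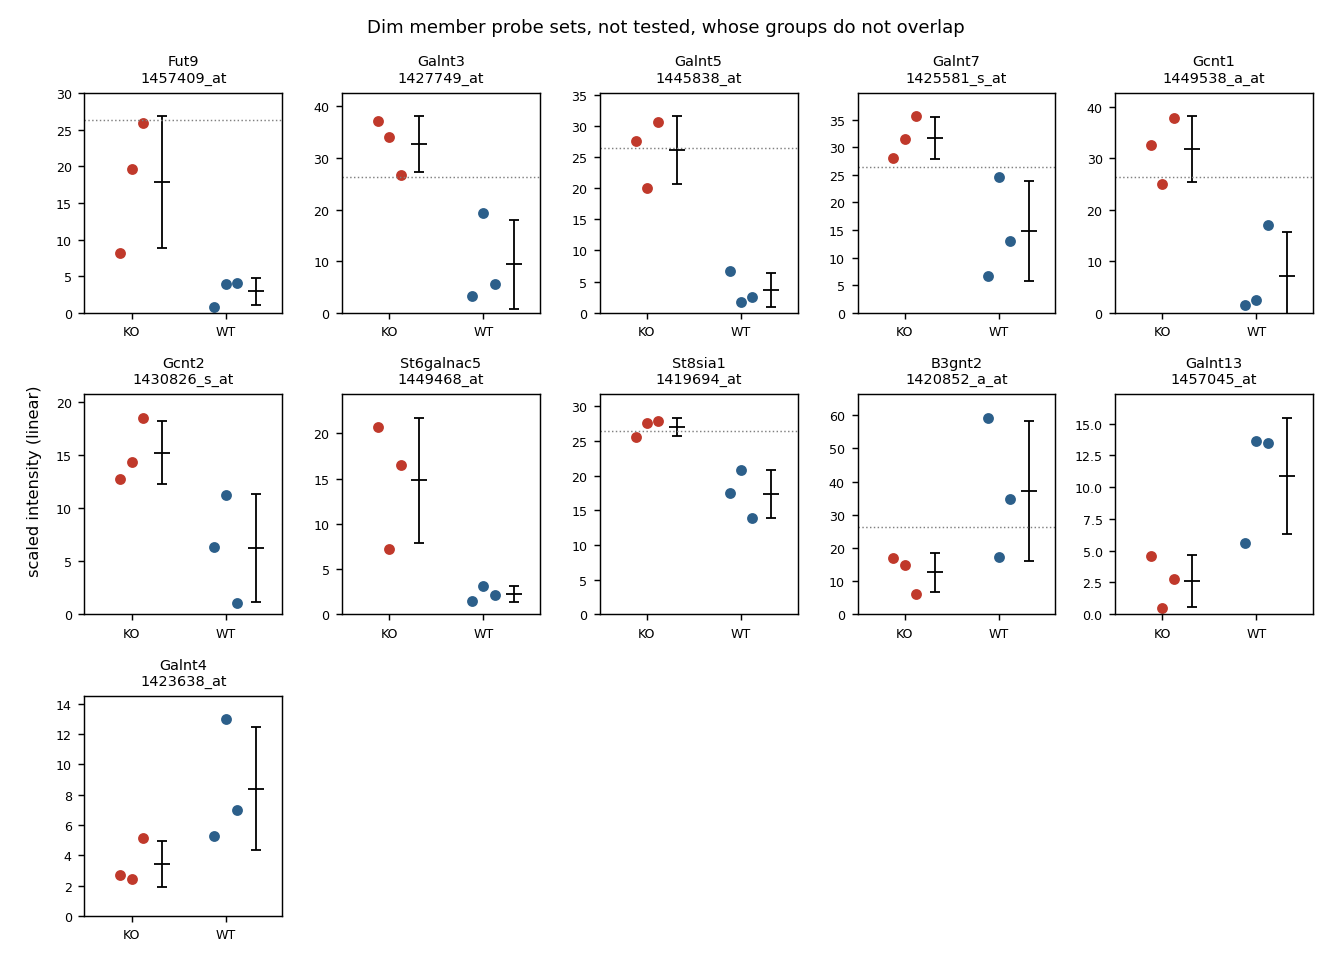
Scaled intensity (vertical axis, linear, starting at 0, where SD bars are cut) of 11 dim member probe sets in each of 3 KO pools (red, left) and 3 wild-type pools (blue, right), with mean and SD. Shown are those of the 15 without overlap in which a group mean lay above the floor of 7.99. The dotted line is the dim limit of 26.4, and no KO value exceeds 37.8.

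The enzymes draw on nucleotide sugars made elsewhere in the cell. Of 33 genes of nucleotide sugar synthesis and Golgi transport, all tested, 0 passed limma's test in either direction (4 at an unadjusted p under 0.05, median log2 fold change −0.02). Over all tested probe sets 4676 of 27022 had an unadjusted p under 0.05, and the median was 0.01. Cmas, which activates sialic acid, read 2968 ± 242 in KO pools and 3119 ± 183 in wild-type pools (−0.07, SE 0.09), and its Golgi transporter Slc35a1 read 1908 ± 80.0 in KO pools and 2079 ± 63.6 in wild-type pools (−0.12, SE 0.09). Of 27 genes of N-glycan assembly and trimming 8 had an unadjusted p under 0.05, and the median log2 fold change was 0.18. By adjusted p 1 rose and 0 fell (3.7% called, against 4.68% of all tested probe sets). That was Man1a, a Golgi mannosidase that trims N-glycans before branching, at 3354, 3237 and 3487 in KO pools, against 1777, 1879 and 1916 in wild-type pools (0.85, SE 0.09, adjusted p = 9.71e-05). Of 20 tested other glycosyltransferases of the Golgi and endoplasmic reticulum, 4 had an unadjusted p under 0.05, and the median was 0.07. By adjusted p C1galt1c1 rose and 0 fell (5% called). This X-linked chaperone of the core O-glycan galactosyltransferase gave 0.44 (SE 0.11, adjusted p = 0.0357), and the galactosyltransferase C1galt1 itself gave −0.21 (SE 0.14, adjusted p = 0.515). Of 14 tested sialidases, fucosidases and galactosidases 0 passed limma's test (0 at an unadjusted p under 0.05, median 0.14). Of 9 tested lectins 0 passed (1 at an unadjusted p under 0.05, median 0.03).

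Of 22 tested proteins known to carry such glycans, 3 passed, each higher in KO pools (13.6%, against 4.68% of all tested probe sets, 2.75% higher). In limma's test 11 of the 22 had an unadjusted p under 0.05, and the median log2 fold change was 0.23. This list too was written with earlier results of these data known, and it counts only the brightest probe set of each gene. Its shares are therefore not like for like with those of all probe sets, and an excess was not tested. Egfr, a glycoprotein receptor, read 746 ± 141 in KO pools and 38.0 ± 11.2 in wild-type pools at its brightest probe set (4.32, SE 0.23, adjusted p = 6.22e-07). Its other tested probe sets gave 4.16, 1.11 and 0.92, and the last did not pass (adjusted p = 0.0785). The Egfr probe set at 4.16 read 15.2, 17.3 and 17.1 in wild-type pools, under the dim limit, and was tested through its KO values alone. Icam1, an adhesion molecule, read 85.6, 97.1 and 66.6 in KO pools, against 17.7, 55.4 and 20.8 in wild-type pools (1.59, SE 0.39, adjusted p = 0.0344). Emcn, an endothelial sialomucin, read 85.4, 40.3 and 54.5 in KO pools, against 19.6, 20.7 and 25.7 in wild-type pools. All its wild-type values were under the dim limit, so it was tested through its KO values alone.

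**Figure D4:**
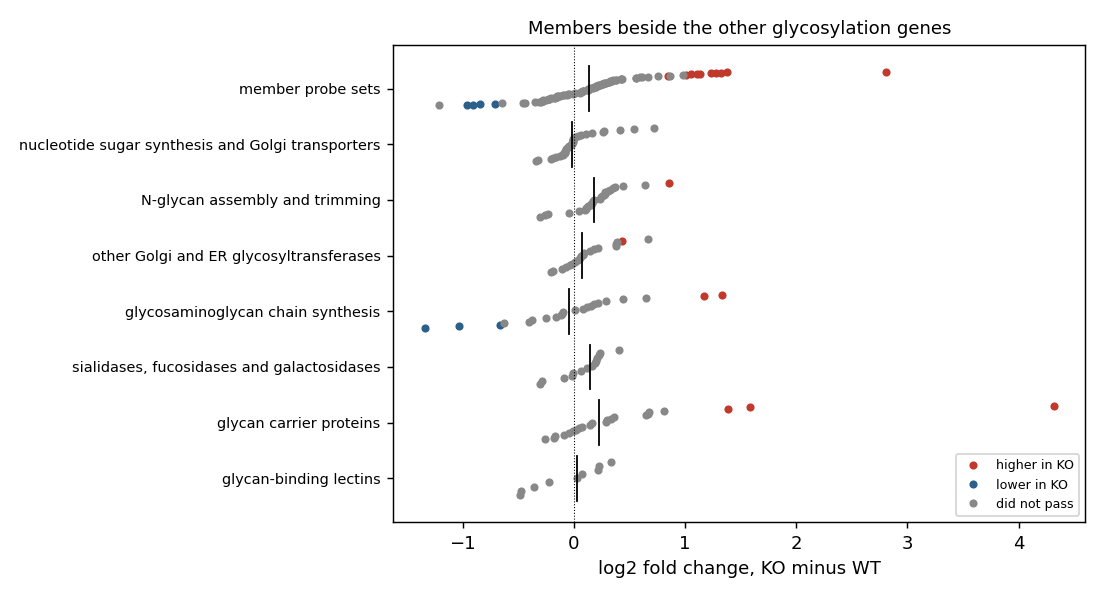
Log2 fold change (KO minus wild-type, horizontal axis) of the 92 tested member probe sets in the top row and of the tested genes of 7 lists of other glycosylation genes below, 1 probe set per gene, each row sorted by value. Red and blue points were higher and lower in KO pools at an adjusted p under 0.05, grey points did not pass, and black bars are medians. In the nucleotide sugar row no point is coloured.

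Markers of cell types that the samples could hold moved between the same pools, and their part in the member values was not tested. The defining genes of the epithelium were present, Lhx9 at 6262 ± 553 in KO pools and 6156 ± 498 in wild-type pools and Wt1 at 2002 ± 308 in KO pools and 2620.3 ± 136 in wild-type pools. Of 15 tested epithelial markers 5 rose (Upk1b by 1.44) and 2 fell (Nr5a1 by 1.22 on the log2 scale). Of 14 tested markers of primordial germ cells, which carry Lewis x, 0 rose and 3 fell, Dnd1, Dppa5a and Dppa3. The summed level over the list was 2131 to 2735 in KO pools and 2824 to 3294 in wild-type pools. Of 14 mesenchyme markers 7 rose and 0 fell (21638 to 22722 in KO pools, 16032 to 18349 in wild-type pools), led by Twist1 at 1.75. Of 14 endothelial markers 4 rose, Emcn among them, and 0 fell (2057 to 2441 in KO pools, 1286 to 1711 in wild-type pools), with Pecam1 and Tie1 too dim to test. Called were 46.7% of epithelial, 21.4% of germ cell, 50% of mesenchyme and 28.6% of endothelial markers. Over all tested probe sets the share was 4.68%, but the lists count only the brightest probe set of each gene.

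Neural markers, of interest because St8sia2, St6galnac5 and Fut9 are also known from brain, split. Of 10 tested, Nefm and Stmn2 rose, Dct fell and 7 did not pass, and the sum was 1248 to 2151 in KO pools and 1311 to 1729 in wild-type pools. The neuronal genes Tubb3 and Elavl3 stood out in KO replicate 2 alone. Tubb3, too dim to test, read 13.6, 161 and 15.3 in KO pools against 7.68, 10.2 and 11.2 in wild-type pools. Nefm read 105, 135 and 90.2 in KO pools, against 45.6, 30.3 and 38.5 in wild-type pools. Stmn2 read 68.5, 126 and 117 in KO pools, against 42.8, 44.9 and 48.3 in wild-type pools. Both were higher in every KO pool, so leaving out KO replicate 2 does not remove their difference. The part of neural cells in the member values was not tested. Without KO replicate 2, St8sia2 gave 1.23 and 1.29 at its probe sets (adjusted p = 0.00132 and 0.0128), B4galt6 gave 1.02 at its brightest and Galnt12 gave 1.39. In the same fit St6galnac5 and the B4galt6 probe set 1423228_at did not pass (0.91 and 1.10, adjusted p = 0.0707 and 0.0725), and Fut9 was not tested. Of 7 tested markers of nephric duct and tubules 0 rose and 2 fell, Lhx1, whose KO values were all under the dim limit, and Pax8 (980 to 1081 in KO pools, 1185 to 1270 in wild-type pools). Of 12 tested blood markers Csf1r rose alone (36182 to 37683 in KO pools, 35986 to 37721 in wild-type pools), and of 8 tested markers of gut, liver and muscle Tnnt2 alone (1338 to 1475 in KO pools, 900 to 2741 in wild-type pools). Called were 30% of neural, 28.6% of nephric, 8.33% of blood and 12.5% of gut, liver and muscle markers, beside 4.68% of all tested probe sets.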

How the data were processed

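The authors deposited 1 linear intensity per probe set for each of 6 one-channel arrays. Per the submitters' processing notes GCOS 1.2 was used; the algorithm, scaling target and filters are not given in the sources used here. Deposited medians were 48.2 to 59.8 in KO arrays and 40.6 to 63.6 in wild-type arrays.

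Arrays were scaled to a common 2% trimmed mean (309.2), values under the 20th percentile (7.99) were raised to it, log2 was taken, and the 64 control probe sets and the dimmest 40% (mean under 26.4) were left out. KO minus wild-type was estimated by limma 3.58.1 under R 4.3.3 (lmFit, then eBayes with a trend in intensity). Tests were two-sided and p-values adjusted by Benjamini-Hochberg over 27022 probe sets. Printed means and SDs are linear scaled values, and 95% intervals use the moderated degrees of freedom. On simulated arrays it called 48 of 100 changes of 2-fold and 93 of 100 of 4-fold, with 4 false calls among 27022. The simulated arrays gave 145 calls in all and the data 1264. The adjusted p depends on how many probe sets change, so these rates need not hold for the data.

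Symbols came from the platform annotation (34958 probe sets with 1 symbol, 932 with several, 9211 with none) and 34754 matched RefSeq (GRCm38.p6). 1 probe set with several symbols, a member's among them, was not used. Members, gene lists and tests were chosen with earlier results of these data known. Named were Fut9, all called members with the other tested probe sets of their genes, the 2 of smallest p of families without a call, all dim genes and the called list genes of greatest change. Other members and list genes named were chosen after their values were seen. In the lists the brightest probe set stood for a gene.

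Replicate numbers did not pair the pools: deviations from group means correlated at −0.07, 0.04 and −0.05 for equal numbers. The alternatives tried were 2 other scalings, no scaling, another floor, a pseudocount, 2 other filters, a replicate block, no intensity trend, no probe sets open to cross-hybridisation, and each pool left out.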

Additional observations from a re-analysis of the deposited data

How the results depend on the processing

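The 14 member calls, Fut9 included, were 11 to 15 under 8 of the 10 alternatives that kept all pools, the others being 10 without an intensity trend and 2 with no filter on dim probe sets. With no filter, 151 of all probe sets passed, 107 higher and 44 lower, and of the members 1 was higher (St8sia2) and 1 lower (St6gal1); 45037 probe sets were then tested in place of 27022, the prior had 0.795 degrees of freedom in place of 8.74, and the cause was not tested. Without the intensity trend 541 passed, 317 higher and 224 lower, with 6 members higher, and all 3 B4galt6 calls, Gcnt1 and St3gal1 were lost. With values as deposited 267 of all probe sets and 1 member were lower. St6gal1 and St8sia2 (1420377_at) passed under all 16 alternatives. The labels state no pairing of the pools, so the replicate block was an alternative only. With the replicate block 13 members and 1160 of all probe sets passed, and St3gal1 (adjusted p = 0.0686) and St6galnac5 (adjusted p = 0.0665) were lost. With 1 pool left out, member calls were 8 to 15, higher 6 to 12 and lower 1 to 3, and over all probe sets 721 (without wild-type replicate 1) to 1687, 441 to 892 and 271 to 795; the total was also over 1.5 times lower without any 1 of the KO pools (790 to 834). Signs turned only for uncalled values: B4galnt4 gave 0.086 as deposited and −0.13 to 0.14 with 1 pool left out, above 0 without KO replicate 1 or wild-type replicate 1, and St3gal1 at 1418946_at gave −0.47 to 0.083, above 0 without KO replicate 2. Signal near the floor limits Fut9 and all dim members, and 3 arrays per group limit the precision of every value.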

Other observations

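Enzymes that build or sulfate glycosaminoglycans, another large class of sugar chains, were measured as well. Of 22 tested, 2 rose, 3 fell and 17 did not pass (22.7% called, against 4.68% of all tested probe sets). In limma's test 10 of the 22 had an unadjusted p under 0.05, and the median log2 fold change was −0.04. The list was written with earlier results of these data known and counts only the brightest probe set of each gene. The shares are therefore not like for like, and an excess over the list was not tested. The rises were in the heparan sulfate 3-O-sulfotransferases Hs3st3b1, at 625, 556 and 535 in KO pools against 243, 270.3 and 247 in wild-type pools (log2 fold change 1.17, SE 0.14, limma adjusted p = 0.000288), and Hs3st3a1, at 110.5, 101 and 84.4 in KO pools against 42.8, 42.0 and 32.8 in wild-type pools (1.33, SE 0.24, adjusted p = 0.00614). Hs3st1, of the same enzyme family, fell, at 29.4, 29.1 and 48.0 in KO pools against 84.9, 106 and 74.0 in wild-type pools (−1.34, SE 0.28, adjusted p = 0.0150). Ext1, which polymerises heparan sulfate, read 717 ± 58.3 in KO pools and 1136 ± 95.7 in wild-type pools (SD, n = 3 each; −0.66, SE 0.12, adjusted p = 0.00517). Has2, a hyaluronan synthase, read 109 ± 14.8 in KO pools and 224 ± 33.1 in wild-type pools (−1.04, SE 0.19, adjusted p = 0.00626). In each of these 5 genes the groups did not overlap.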
